A study of Loxodonta africana with 12 samples.

Results

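The early response to ionizing radiation was read from 6 of the 12 RNA sequencing libraries made from African elephant (Loxodonta africana) blood: 3 untreated libraries collected at 5 h, labelled NT, and 3 libraries collected 5 h after 2 Gy, the dose of absorbed radiation. The members were taken by the group and time in the labels and by the matching count columns of the 5 h table. The other 6 libraries, untreated and 2 Gy at 24 h, were used here only where the effect at 5 h was set against that at 24 h. Per the labels, total RNA was depleted of ribosomal RNA and made into stranded libraries, and the series was made to find genes that differ between irradiated and untreated cells. No source used here gives the age, sex or number of animals, or how cells were isolated and cultured, so the p-values speak only of how these libraries differ among themselves, and that spread may be technical.

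Ionizing radiation breaks DNA, and the kinase ATM signals such breaks to the transcription factor p53. Activated p53 raises transcription of genes that halt the cell cycle, repair DNA or start cell death, and of genes such as MDM2 that bring p53 itself down again. Lymphocytes are among the most radiosensitive cells of blood.

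The 6 libraries held 31.1e6 to 38.1e6 counts over 16406 annotated genes, 98.6% to 98.8% of them in protein-coding genes. Of the 10 cell type lists, those of monocytes and neutrophils had the highest sums. The summed level of 13 monocyte and macrophage markers was 6217 to 7509 counts per 1000000 (CPM), and that of 15 neutrophil markers 2388 to 2783 CPM. That of 25 T cell markers was 629 to 987 CPM, of 17 B cell markers 335 to 680 CPM and of 11 platelet markers 116 to 621 CPM. The 10 erythroid markers summed to 19.3 to 42.3 CPM, but hemoglobin genes were not analysed here. No marker of any of the 10 cell type lists was at 0 in every library. Libraries of the same replicate number deviated together from their group means (correlations 0.712, 0.743 and 0.863 over 7796 genes, against -0.664 to -0.019 between different numbers), so the numbers pair the libraries. On the first principal component, with 40.8% of the variance, the 3 irradiated libraries lay on one side and the 3 untreated on the other. The second, with 26.4%, set replicate 3 of both groups apart.

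After 2 Gy, a small set of genes led by known p53 targets rose. Genes listed here as dendritic cell and B cell markers were among those that fell. Of 12969 genes tested, 207 passed at an adjusted p below 0.05 (edgeR quasi-likelihood test, Benjamini-Hochberg), which is 1.6% of all genes. Of these, 145 were higher after irradiation (1.12% of all genes tested) and 62 lower (0.478%). With the replicate number as a block, 2655 genes passed (20.5%), 1369 higher (10.6%) and 1286 lower (9.92%), and these included all 207. The genes that passed only with the block had small changes, with a median absolute log2 fold change of 0.28 against 1.13 for the 207. Below, genes "rose" or "fell" where they passed without the block, and a gene that passed only with it is said to have done so. Each of the 145 was higher in all 3 same-numbered pairs and each of the 62 lower in all 3. Choosing genes on these same libraries favours such agreement. Of all 12969 genes, 3309 were higher and 3415 lower in all 3 pairs. Rises were larger than falls: 90 of the 145 exceeded 1 on the log2 scale and 43 exceeded 2, while 27 of the 62 lay below -1 and 10 below -2. The median log2 fold change over all genes was -0.0015. Of all 12969 genes, 1672 had an unadjusted p below 0.05 in edgeR without the block, and DESeq2 called 444. Counts given below for single lists are to be read beside these. Leaving out 1 library left 86 to 191 calls, with the fewest without irradiated replicate 1 (86), irradiated replicate 2 (97), untreated replicate 2 (107), untreated replicate 1 (115) and untreated replicate 3 (129).

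**Figure D1:**
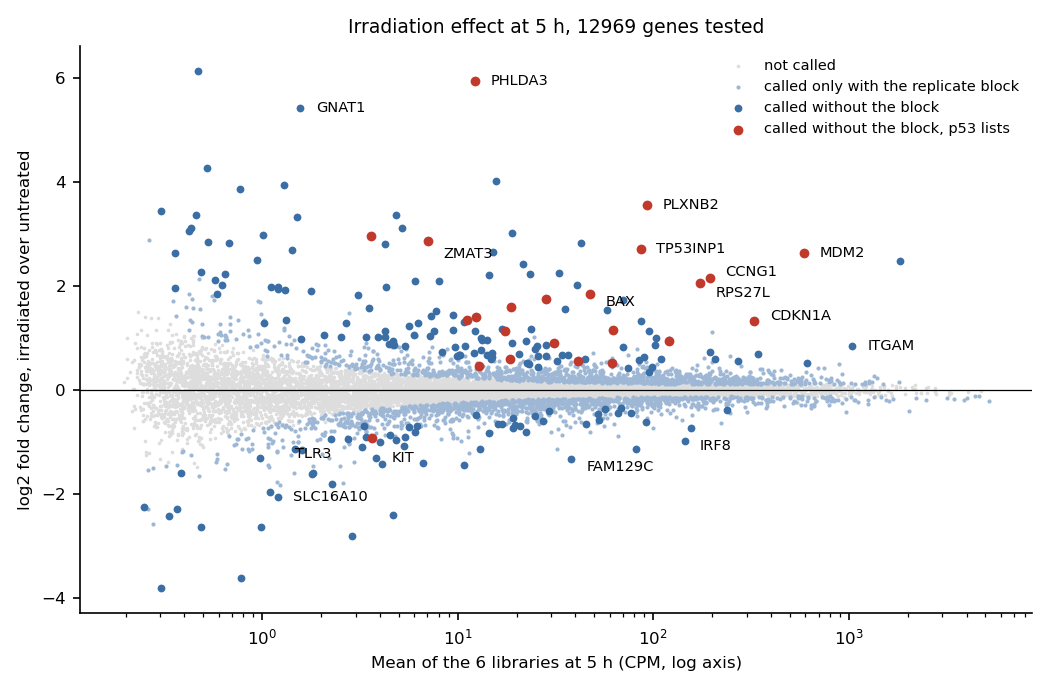
Mean level of each gene tested at 5 h over the 6 libraries (horizontal, CPM, log axis) against its log2 fold change, irradiated over untreated (vertical). Genes that passed without the replicate block are large points, red where they belong to one of 6 lists of p53 genes, and light blue points passed only with the block. The red points other than TLR3 lie above 0, with PHLDA3, PLXNB2, TP53INP1 and MDM2 among the highest.

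The p53 genes were split over 6 lists by role, with 132 members in the table and 121 left after the filter on low counts. Of these 121, 22 rose and 1 fell, and with the block 47 were higher and 11 lower. Their median log2 fold change was 0.12. Leaving out 1 library gave 16 to 20 rises. These lists account for 23 of the 207 calls, and 160 of the calls are in none of the 32 lists described here.

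Genes that feed back on p53 were among the strongest rises. Of 10 tested, 4 rose and 0 fell, with 7 higher and 1 lower under the block. MDM2, the ubiquitin ligase that marks p53 for degradation (ENSLAFG00000005885, scaffold 2, 59036999 to 59064440, plus strand), stood at 164, 154 and 171 CPM in the untreated and 1154, 998 and 902 CPM in the irradiated libraries of replicates 1 to 3. The groups were far apart, and the log2 fold change was 2.64 ± 0.11 (edgeR, adjusted p = 2.44e-05). TP53INP1, a nuclear protein that promotes p53 phosphorylation, gave 24.6, 23.4 and 20.4 CPM in the untreated and 171, 146 and 131 CPM in the irradiated libraries. Its groups were as far apart as those of MDM2 (log2 fold change 2.71 ± 0.12, adjusted p = 3.60e-05). CCNG1, cyclin G1, which recruits a phosphatase to MDM2, went from 64.5, 74.3 and 75.7 CPM to 324, 308 and 323 CPM (log2 fold change 2.15 ± 0.08). PPM1D, the WIP1 phosphatase that switches ATM and p53 signalling off, rose less, from 33.1, 31.3 and 35.0 to 51.5, 48.8 and 47.4 CPM (0.57 ± 0.07, edgeR adjusted p = 0.00794), and its call was lost without irradiated replicate 1 (adjusted p = 0.0584). MDM4, the MDM2 partner, chosen after its values were seen, had a log2 fold change of 0.10 ± 0.09 (adjusted p = 0.725).

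The kinase upstream did not pass at the level of RNA. ATM stood at 201, 199.9 and 196 CPM in the untreated and 214, 208 and 204 CPM in the irradiated libraries (log2 fold change 0.07 ± 0.06, edgeR adjusted p = 0.704). Its groups did not overlap, by a narrow margin.

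Of 23 tested p53 targets that restrain the cell cycle and growth, 6 rose and 0 fell, 15 were higher with the block, and the median log2 fold change was 0.32. CDKN1A, the p21 inhibitor of cyclin-dependent kinases (ENSLAFG00000009778, scaffold 0, 128580859 to 128583266, minus strand), gave 147, 197 and 219 CPM in the untreated and 463, 486 and 463 CPM in the irradiated libraries, a log2 fold change of 1.33 ± 0.14 (edgeR, adjusted p = 0.00277). Its irradiated libraries lay close together while the untreated ones spread from 147 to 219 CPM. PHLDA3, which blocks activation of the kinase AKT at the membrane, was the gene with the steepest rise among named genes of at least 1 CPM. It went from 0.578, 0.383 and 0.225 CPM to 27.5, 23.7 and 20.9 CPM (log2 fold change 5.94 ± 0.24, adjusted p = 2.44e-05). SESN2, a sestrin that restrains the growth kinase mTORC1, rose from 9.80, 7.97 and 9.996 to 30.6, 28.4 and 25.6 CPM (1.61 ± 0.12). GDF15, a secreted stress hormone, rose from 7.04, 5.202 and 6.65 to 20.7, 12.4 and 14.7 CPM (1.34 ± 0.21). TOB1, an antiproliferative adaptor of messenger RNA decay, gave 0.94 ± 0.17 (adjusted p = 0.0411). GADD45A, which binds PCNA and CDK1, gave 1.15 ± 0.22 and sat at the threshold (adjusted p = 0.0499). PLK2, a kinase of the polo family, gave 300.3, 171 and 326 CPM in the untreated and 495, 321 and 463 CPM in the irradiated libraries and passed only with the block (log2 fold change 0.71 ± 0.06, adjusted p = 1.42e-07, against 0.29996 without it). CDKN1A, PHLDA3 and SESN2 stayed past the threshold in each fit that left out 1 library. GDF15 did not when any untreated replicate was left out (adjusted p 0.0526 to 0.0816), nor TOB1 when any of untreated 1 and irradiated 1, 2 and 3 was left out (adjusted p from 0.0721 to 0.195), nor GADD45A in any of the 6 (0.0508 to 0.217).

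**Figure D2:**
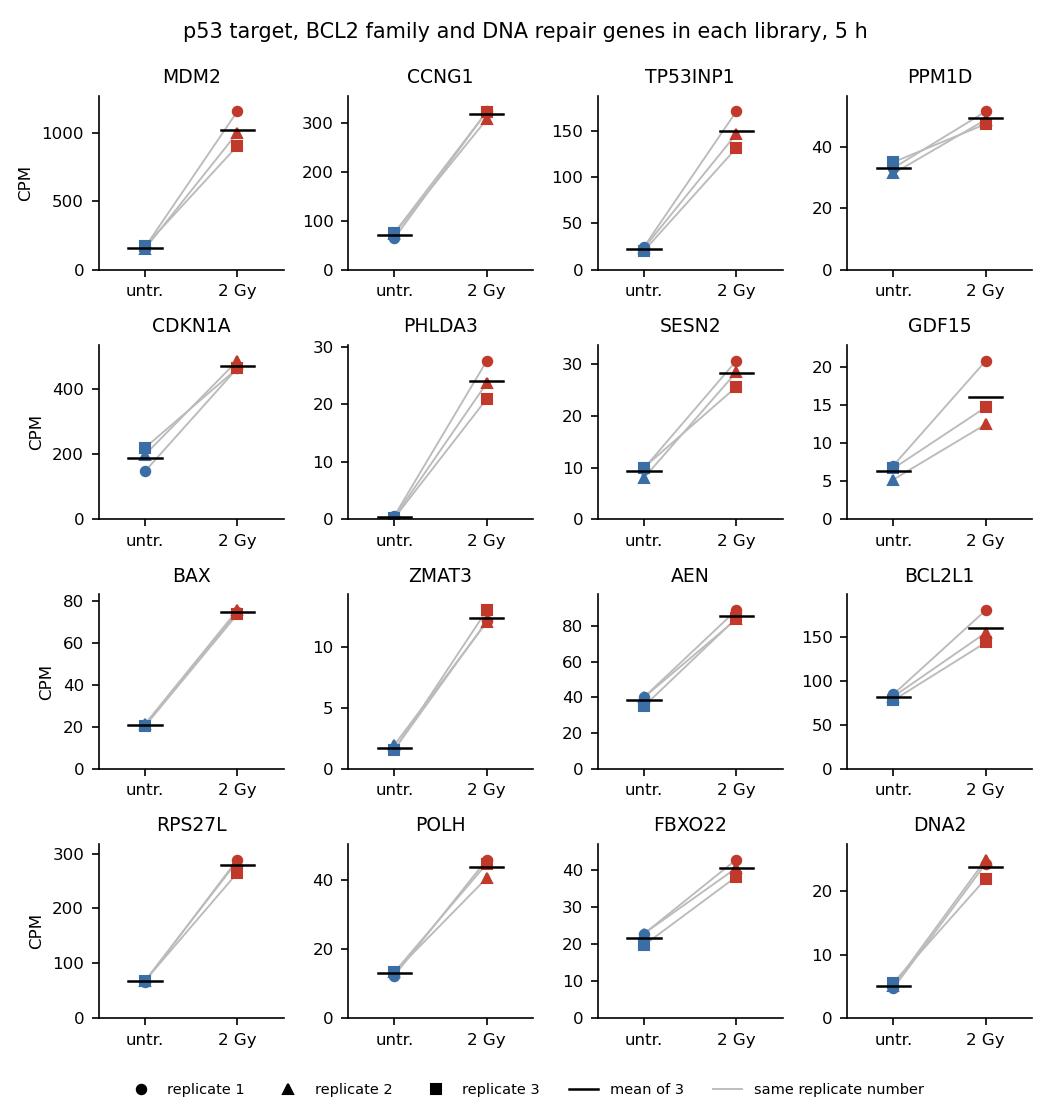
Level in each library (CPM) of 16 genes, untreated (blue) and 2 Gy (red) at 5 h, with 1 symbol per replicate number, grey lines joining the same number and black bars at the mean of 3. In all 16 genes the 3 irradiated libraries lie above the 3 untreated ones, narrowly for PPM1D and widely for PHLDA3.

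In the cell death arm, 4 of 17 p53 targets rose, 0 fell, and the block gave 8 higher and 2 lower. BAX, which opens the mitochondrial outer membrane, was tight within groups, with 20.8, 21.2 and 20.3 CPM in the untreated and 74.7, 75.6 and 73.7 CPM in the irradiated libraries (log2 fold change 1.85 ± 0.06). BAX overlaps BCAT2 on the other strand, looked up for this overlap, whose own log2 fold change was 0.27 ± 0.19 (adjusted p = 0.639), and no source used here says whether counting used strand. ZMAT3, a zinc finger RNA-binding protein, rose from 1.57, 1.94 and 1.54 to 12.1, 11.996 and 12.98 CPM (2.87 ± 0.13), and AEN, a nuclease that digests DNA in dying cells, from 40.0, 39.9 and 35.0 to 88.9, 83.8 and 84.4 CPM (1.16 ± 0.08). TRIAP1, a small p53-regulated inhibitor of apoptosis, rose by 0.46 ± 0.08 (edgeR adjusted p = 0.0328), a call lost in each of the 6 fits that left out 1 library (0.0738 to 0.179). TRAF4 passed only with the block, as lower (log2 fold change -0.59 ± 0.09, edgeR adjusted p with the block = 1.10e-04, without it 0.139).

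Among 21 further genes of the BCL2 family and caspases, the gene that rose protects cells. BAX, a death-promoting member of this family, is counted above with the p53 targets and rose more (1.85 ± 0.06). BCL2L1, the gene of the survival protein BCL-XL, gave 84.7, 82.0 and 77.9 CPM in the untreated and 180.5, 155 and 144 CPM in the irradiated libraries (log2 fold change 0.97 ± 0.09, edgeR adjusted p = 0.00217). No other gene of the 21 passed without the block. With the block, BCL2L11, which encodes the death-promoting BIM, was also higher (0.39 ± 0.06, adjusted p = 2.05e-04, against 0.239 without the block). BID, which links death receptors to mitochondria, was 1 of 5 lower with the block (-0.25 ± 0.05, adjusted p = 0.00193, against 0.542). The lowest log2 fold change of the list was that of BCL2L14, which also passed only with the block (-1.38 ± 0.16, adjusted p = 1.43e-05, against 0.0755). The median of the list was -0.09.

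Repair and nucleotide targets of p53 split sharply between 4 that rose and 9 that did not pass. RPS27L, a ribosomal protein paralog that p53 induces, went from 66.1, 67.5 and 67.9 to 289, 286 and 265 CPM (log2 fold change 2.06 ± 0.07). Reads shared with its paralog RPS27 or with copies could not be separated. POLH, the translesion polymerase that passes UV lesions, rose from 12.3, 13.3 and 13.3 to 45.9, 40.6 and 44.7 CPM (1.75 ± 0.08), and FBXO22, an F-box protein, from 22.8, 22.9 and 19.7 to 42.9, 40.6 and 38.3 CPM (0.90 ± 0.09). REV3L, the catalytic subunit of polymerase zeta, rose by 0.53 ± 0.07 (edgeR adjusted p = 0.0138), a call lost when any of untreated 1 and irradiated 1 and 2 was left out (adjusted p from 0.0669 to 0.0808).

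Several textbook p53 targets did not pass at this time. These were picked after their values were seen. DDB2 and XPC, which find UV damage for excision repair, had log2 fold changes of -0.12 ± 0.08 and 0.10 ± 0.08. PCNA, the replication clamp, had -0.07 ± 0.06, the mitochondrial reductase FDXR -0.45 ± 0.26, the death receptor FAS 0.10 ± 0.12 and SESN1, the paralog of SESN2, -0.22 ± 0.21. Their edgeR adjusted p ranged from 0.542 for FDXR to 0.770 for FAS. With the block the adjusted p was 0.117 for FAS and 0.0545 for SESN1, so none of the 6 passed there. In the metabolic list, C12orf5, which encodes the fructose bisphosphatase TIGAR, rose by 0.59 ± 0.09 (adjusted p = 0.0246), a call lost when any of untreated 1, 2 and 3 and irradiated 1 and 2 was left out (adjusted p from 0.0523 to 0.124). It was the only one of 15 to pass without the block. FUCA1, a lysosomal fucosidase, was 1 of 2 metabolic targets lower with the block (-0.45 ± 0.07, adjusted p = 1.87e-04, against 0.0916 without it).

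Of 43 other p53 targets, 3 rose and 1 fell, or 11 and 5 with the block. PLXNB2, a receptor for semaphorins, gave 13.8, 16.9 and 13.2 CPM in the untreated and 180.2, 199 and 136 CPM in the irradiated libraries (log2 fold change 3.55 ± 0.17, edgeR adjusted p = 3.60e-05). PVRL4, the adhesion molecule nectin 4, rose from 0.739, 0.821 and 0.870 to 6.03, 8.17 and 4.96 CPM (2.97 ± 0.23), and the kinase MAST4 from 6.55, 6.63 and 7.27 to 18.5, 17.1 and 18.5 CPM (1.40 ± 0.09). TLR3, a sensor of double-stranded RNA, fell from 4.72, 4.05 and 5.62 to 2.66, 2.36 and 2.55 CPM (-0.92 ± 0.16, adjusted p = 0.0328), a call lost when any of untreated 1 and 3 and irradiated 1, 2 and 3 was left out (adjusted p from 0.0734 to 0.143).

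Per kilobase of gene model, the order of these messages differed from their order by fold. In the authors' deposited FPKM, RPS27L stood at 1093 ± 57.4, CDKN1A at 946 ± 36.7, MDM2 at 685 ± 84.5 and CCNG1 at 353 ± 6.41 in irradiated libraries (mean ± SD, n = 3). In untreated libraries CDKN1A led these 4 with 381 ± 74.8 FPKM, followed by RPS27L with 265 ± 4.75, MDM2 with 111 ± 4.91 and CCNG1 with 80.0 ± 6.94. PHLDA3, in spite of its fold, reached 63.3 ± 8.67 FPKM. These gene models hold mostly coding sequence, so untranslated regions enter neither count nor length.

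Among genes that act on broken DNA, DNA2, a nuclease and helicase that trims broken ends, listed here under replication, rose from 4.69, 5.07 and 5.56 to 24.4, 25.0 and 21.97 CPM (log2 fold change 2.22 ± 0.10, edgeR adjusted p = 3.60e-05). Its groups do not overlap, and it kept the call without any 1 library. Of 34 genes of double-strand break signalling and repair, 4 were higher with the block, among them FANCI of the Fanconi pathway (0.37 ± 0.07, adjusted p = 6.32e-04, against 0.0747 without it), and 6 lower, among them BRCA1 (-0.70 ± 0.13, adjusted p = 9.28e-04, against 0.113). None of 25 excision and mismatch repair genes passed without the block, with 3 of them at an unadjusted p below 0.05 and 1 called by DESeq2, and 1 was higher and 2 lower with it.

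Outside the lists, the steepest rises were of genes that were almost silent in untreated blood. GNAT1, the transducin subunit of rod photoreceptors, went from 0.129, 0.0274 and 0.0562 CPM to 2.96, 3.80 and 2.44 CPM (log2 fold change 5.42 ± 0.40). TNS1, a tensin of focal adhesions, rose from 1.93, 2.05 and 1.49 to 37.4, 33.3 and 18.4 CPM (4.03 ± 0.30). SASH1, a signalling scaffold, rose from 0.193, 0.0548 and 0.225 to 2.58, 2.49 and 2.26 CPM (3.94 ± 0.34), and the adhesion protein SDK2 from 0.996, 0.657 and 0.927 to 8.88, 9.57 and 7.99 CPM (3.36 ± 0.18). No untreated library exceeded 2.05 CPM in any of these 4 genes. Next in size were CCDC34 (3.32 ± 0.26), IZUMO4 (3.11 ± 0.20), SNAI3 (3.01 ± 0.34), the neuronal tubulin TUBB3 (2.99 ± 0.33), the semaphorin receptor PLXNA2 (2.83 ± 0.23) and FAM212B (2.80 ± 0.20). SNAI3 overlaps PABPN1L, so its reads cannot be assigned with certainty. By the rule that chose them, the groups of these genes do not overlap, which holds for 18.6% of all genes, 9.35% higher and 9.21% lower. All 10 stayed past the threshold in each fit that left out 1 library (largest adjusted p 0.0295, for SNAI3).

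The largest gain in reads went to a gene with no symbol. ENSLAFG00000005976 (scaffold 2, 46460616 to 46535112, plus strand, protein coding, with no deposited description) gave 640.2, 692 and 326 CPM in the untreated and 3509, 3568 and 2247 CPM in the irradiated libraries. Replicate 3 was the lowest of both groups, and the groups did not overlap. Its log2 fold change was 2.49 ± 0.30 (edgeR, adjusted p = 0.00641), and its mean gain exceeded that of MDM2. Of the 207 genes called, 21 carry no symbol, 12 higher and 9 lower. It was picked after its values were seen.

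Immediate early and stress genes, which cells switch on within minutes of a stimulus, rose where they passed. Of 27 tested, 3 rose and 0 fell, and the block gave 15 higher and 0 lower, with a median log2 fold change of 0.20. ATF3, a stress-induced repressor, rose from 19.7, 10.3 and 17.9 to 72.3, 59.4 and 63.6 CPM (log2 fold change 2.03 ± 0.22, edgeR adjusted p = 0.00343). FOSL1, an AP-1 subunit, rose by 1.06 ± 0.16 (adjusted p = 0.0186) and GADD45G by 0.86 ± 0.14 (adjusted p = 0.0275). FOSL1 lost its call when any of untreated 1, 2 and 3 and irradiated 1 and 2 was left out (adjusted p from 0.0552 to 0.0857), and GADD45G without the same libraries (0.0648 to 0.139). EGR1 and KLF4, both induced by growth factors and injury, passed only with the block (0.33 ± 0.04 and 0.37 ± 0.05, adjusted p = 1.79e-05 and 2.03e-05, against 0.416 and 0.640 without it).

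IL6, a cytokine of acute inflammation, rose alone among 23 NF-kB and inflammatory genes, while the block called 5 higher and 7 lower. Its levels were 6.97, 3.92 and 13.8 CPM in the untreated and 35.8, 31.9 and 48.5 CPM in the irradiated libraries, so replicate 3 was the highest of both groups, and the groups did not overlap (log2 fold change 2.23 ± 0.40, edgeR adjusted p = 0.0373). The call was lost when any of untreated 1 and 2 and irradiated 1, 2 and 3 was left out (adjusted p from 0.0532 to 0.139), and the adjusted p with the block was 3.31e-09. Of 41 cytokines and receptors, 3 rose and 0 fell, with 10 higher and 8 lower under the block. They were IL18, an inflammasome product (12.8, 12.8 and 18.1 to 33.5, 31.6 and 33.9 CPM, 1.18 ± 0.14), the costimulatory ligand TNFSF4 (2.12 ± 0.36, from 0.211 ± 0.0466 CPM, mean ± SD) and the interleukin 4 receptor IL4R (239.7, 207 and 208 to 341, 322 and 306 CPM, 0.57 ± 0.08). TNFSF4 lost its call in each fit that left out 1 library (adjusted p 0.0667 to 0.123) and IL4R when any of untreated 2 and 3 and irradiated 1 and 2 was left out (adjusted p from 0.0544 to 0.106). CD70, the ligand of CD27 and chosen after its values were seen, rose from 0.675, 0.602 and 0.955 to 3.39, 2.49 and 2.55 CPM (1.91 ± 0.24). None of 31 interferon-stimulated genes passed (0 at an unadjusted p below 0.05, 0 by DESeq2), and 10 were lower with the block, led by OASL (-0.29 ± 0.04, adjusted p = 1.05e-04, against 0.735 without it).

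Of 13 monocyte and macrophage markers 1 rose and 0 fell, with 5 higher and 4 lower under the block. ITGAM, the integrin CD11b of monocytes and neutrophils, gave 803, 768 and 651 CPM in the untreated and 1429, 1429 and 1128 CPM in the irradiated libraries (log2 fold change 0.84 ± 0.12, edgeR adjusted p = 0.0146, lost when any of untreated 2 and irradiated 1 and 2 was left out (adjusted p from 0.0604 to 0.0865)). ITGAX, the related integrin CD11c, and CD163, a hemoglobin scavenger receptor of macrophages, passed only with the block, as higher (0.80 ± 0.12, adjusted p = 1.89e-04, against 0.158 without it, and 0.42 ± 0.06, 1.30e-04 against 0.224). The apolipoprotein APOE did so as lower (-0.79 ± 0.13, adjusted p = 2.75e-04, against 0.149 without it). S100A9, a calcium-binding alarmin of neutrophils and monocytes, rose from 56.6, 41.1 and 53.1 to 96.1, 79.7 and 91.9 CPM (0.83 ± 0.13, lost without irradiated replicate 1 (adjusted p = 0.113)). It was the only one of 15 neutrophil markers to pass without the block, which gave 3 higher and 3 lower. Its partner S100A8 (0.54 ± 0.05, adjusted p = 2.35e-06, against 0.0949 without it) and the related S100A12 (0.29 ± 0.04, adjusted p = 1.57e-04, against 0.395 without it) were the others that were higher. Among the 3 lower was the gelatinase MMP9 (-0.41 ± 0.04, adjusted p = 3.05e-06, against 0.408 without it). Its mean was 1100 CPM in the untreated and 827 CPM in the irradiated libraries. The summed level of the monocyte markers was 6217 to 7307 CPM in untreated and 6592 to 7509 CPM in irradiated libraries, and that of the neutrophil markers 2388 to 2783 and 2396 to 2687 CPM. GP9, a platelet glycoprotein, rose from 0.289, 0.192 and 0.365 to 1.63, 1.75 and 1.43 CPM (2.50 ± 0.27). The only other one of 11 platelet markers to pass was THBS1, thrombospondin 1, with 49.3, 56.5 and 272 CPM in the untreated and 172, 174 and 477 CPM in the irradiated libraries. Each pair rose, replicate 3 was far above the others in both groups, and the gene passed only with the block (1.38 ± 0.12, adjusted p = 3.42e-07, against 0.570).

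Of 12 dendritic cell markers tested, 3 fell and 0 rose, 8 were lower and 1 higher with the block, and the median log2 fold change was -0.54. IRF8, the transcription factor needed for dendritic cell and monocyte development (ENSLAFG00000010973, scaffold 57, 6851943 to 6870496, minus strand), gave 176, 193 and 206 CPM in the untreated and 87.8, 96.4 and 108 CPM in the irradiated libraries, so the highest irradiated library was well below the lowest untreated one (log2 fold change -0.98 ± 0.10, edgeR adjusted p = 0.00236). TCF4, the master regulator of plasmacytoid dendritic cells, fell from 26.7, 28.6 and 30.2 to 13.96, 15.4 and 19.5 CPM (-0.81 ± 0.13). PLD4, a nuclease on the same list, fell from 18.5, 22.3 and 17.9 to 12.03, 12.99 and 12.6 CPM (-0.64 ± 0.11). IRF8 kept its call without any 1 library, TCF4 lost it when any of untreated 1, 2 and 3 and irradiated 1 and 2 was left out (adjusted p from 0.0698 to 0.107) and PLD4 when any of untreated 1 and 2 and irradiated 1, 2 and 3 was left out (adjusted p from 0.0623 to 0.160). ZBTB46, which marks classical dendritic cells, passed only with the block (-0.57 ± 0.07, adjusted p = 2.37e-05, against 0.134), as did CLEC9A, which was chosen after its values were seen (-1.05 ± 0.16, 1.70e-04 against 0.245). The summed level of the 12 markers was 714 to 783 CPM in untreated and 586 to 629 CPM in irradiated libraries. In such bulk samples, fewer cells of a type and less RNA per cell cannot be told apart.

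All 17 B cell markers tested had a negative log2 fold change, with a median of -0.44. FCRL1, a receptor of B cells, fell from 26.2, 25.1 and 25.7 to 13.1, 17.4 and 17.6 CPM (-0.68 ± 0.12, edgeR adjusted p = 0.0350, lost when any of untreated 1, 2 and 3 and irradiated 1 and 2 was left out (adjusted p from 0.0567 to 0.121)) and was the only one to pass without the block. With the block 13 were lower and 0 higher. The B cell antigen MS4A1, known as CD20, went from 34.4, 46.5 and 51.7 to 19.9, 21.8 and 31.4 CPM (-0.86 ± 0.07 with the block, adjusted p = 1.15e-07, against 0.108 without it). The complement receptor CR2 gave -0.71 ± 0.06 (1.15e-07 against 0.192), CD79B of the B cell receptor -0.62 ± 0.06 (1.50e-06 against 0.111) and the inhibitory receptor CD22 -0.41 ± 0.05 (1.23e-05 against 0.0916). DESeq2 without the block called 6 of the 17 lower. The summed level of the list was 503 to 680 CPM in untreated and 335 to 549 CPM in irradiated libraries and fell in each pair, so the groups overlap while the pairs do not cross. FAM129C, a B cell gene outside the list, fell from 58.9, 49.3 and 54.4 to 17.8, 22.2 and 25.2 CPM (-1.32 ± 0.13, adjusted p = 0.00236).

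**Figure D3:**
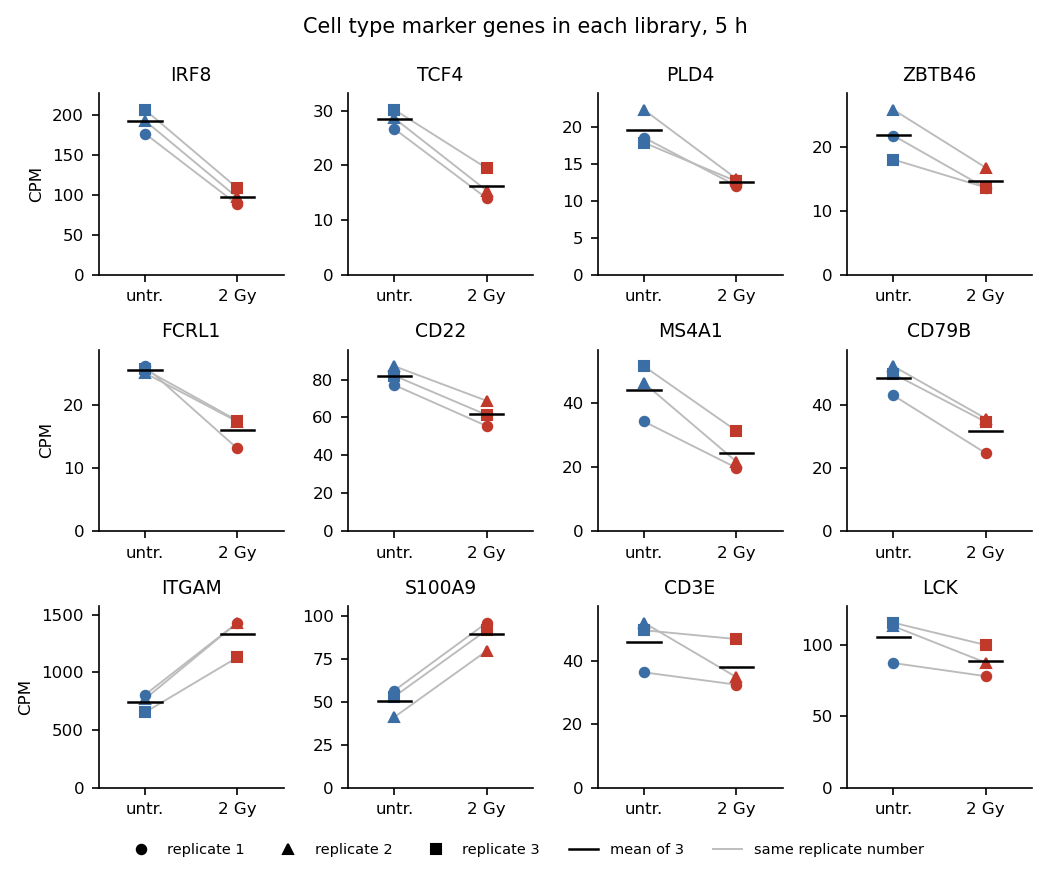
Level in each library (CPM) of 12 cell type markers at 5 h, drawn as untreated (blue) and 2 Gy (red) with grey lines joining the same replicate number and black bars at the mean of 3. The dendritic markers IRF8, TCF4, PLD4 and ZBTB46 and the B cell markers FCRL1, CD22, MS4A1 and CD79B are lower in all 3 pairs, ITGAM and S100A9 higher in all 3, and the T cell markers CD3E and LCK are lower by less.

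T cell and cytotoxic cell markers were lower only with the block. Of 25 T cell markers 0 passed without it (3 at an unadjusted p below 0.05, 1 by DESeq2) and 13 were lower with it. Over all 12969 genes, 1672 had an unadjusted p below 0.05, and 9.92% were lower with the block. The first pair of the following was chosen after its values were seen. The receptor subunit CD3E gave -0.27 ± 0.07 (adjusted p = 0.0157 with the block, 0.581 without), the kinase LCK -0.25 ± 0.05 (0.00171 and 0.476) and the interleukin 7 receptor IL7R -0.48 ± 0.06 (2.09e-05 and 0.440). Of 14 NK and cytotoxic markers 0 passed without the block (6 at an unadjusted p below 0.05, 1 by DESeq2) and 9 were lower with it, among them the transcription factor EOMES (-0.70 ± 0.07, 4.62e-06 and 0.166). Summed levels were 689 to 987 CPM and 629 to 868 CPM for T cells and 301 to 416 CPM and 267 to 339 CPM for NK cells, untreated and irradiated. KIT, the stem cell factor receptor listed with basophil and mast cell markers, fell from 6.07, 5.07 and 5.25 to 2.01, 1.82 and 2.79 CPM (-1.30 ± 0.18, edgeR adjusted p = 0.0138, lost when any of untreated 1 and irradiated 1 and 2 was left out (adjusted p from 0.0620 to 0.0869)). KIT was the only one of 6 basophil and mast cell markers to pass. None of 10 erythroid or 8 stromal and endothelial markers passed (0 at an unadjusted p below 0.05 and 0 by DESeq2 in each), and the block gave 1 higher in each and 0 and 1 lower. The part of cell numbers in any of these results was not tested.

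**Figure D4:**
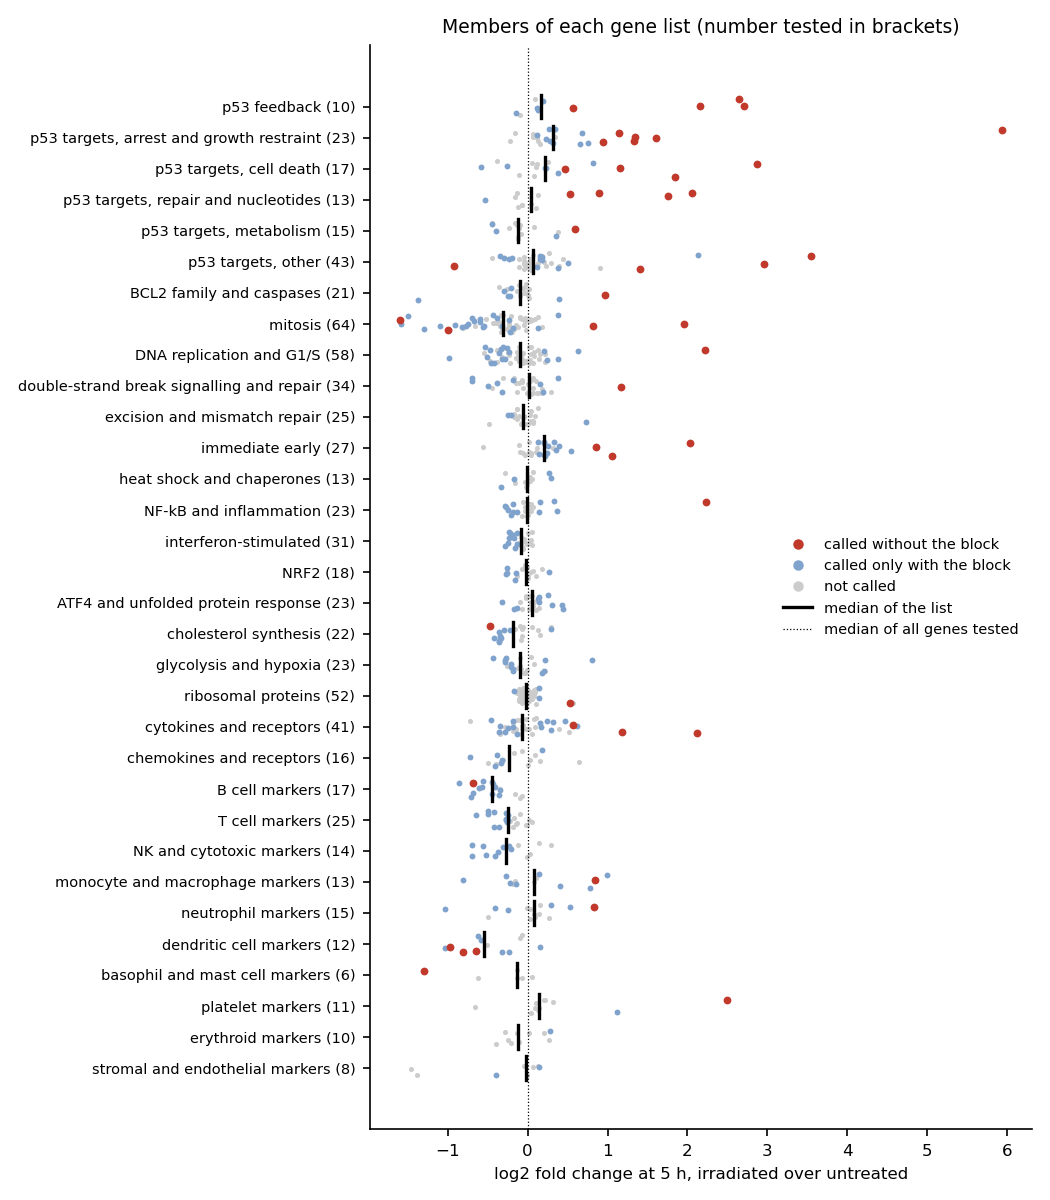
Log2 fold change at 5 h (horizontal) of every tested member of 32 gene lists, 1 list per line, with a black bar at the list's median and a dotted line at the median of all genes tested. Red points passed without the replicate block, blue ones only with it. The B cell and dendritic cell lists have the lowest medians, -0.44 and -0.54, and the growth restraint list of p53 targets the highest, 0.32.

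SLC16A10, an amino acid transporter, fell from 1.67, 1.999 and 2.13 to 0.435, 0.479 and 0.478 CPM (log2 fold change -2.06 ± 0.21). It overlaps PPP2R3C, and reads in the overlap cannot be assigned with certainty. The sulfatase SULF1 gave -1.96 ± 0.28, the endolysosomal channel MCOLN3 -1.599 ± 0.23, FILIP1L -1.44 ± 0.15 (16.2, 12.7 and 18.2 to 6.14, 5.46 and 5.73 CPM) and the somatostatin receptor SSTR3 -1.42 ± 0.17 (5.59, 6.13 and 6.23 to 1.79, 2.81 and 2.12 CPM). The linker histone HIST1H1D gave -1.40 ± 0.25, and its family of near-identical genes makes that value uncertain. Further falls were of SCML2 (-1.16 ± 0.21), the collagen COL17A1 (-1.12 ± 0.19), C16orf74 (-1.09 ± 0.18), KLHL6, a B cell adaptor of ubiquitin ligases (-1.08 ± 0.17, 6.30, 7.50 and 7.95 to 3.29, 2.78 and 4.19 CPM), and SOWAHC (-0.96 ± 0.16). SLC16A10, FILIP1L and SSTR3 kept the call without any 1 library. The others lost it in 4 to 6 of the 6 such fits, SULF1 when any of untreated 1 and 3 and irradiated 1 and 2 was left out (adjusted p from 0.0508 to 0.0771), MCOLN3 when any of untreated 1, 2 and 3 and irradiated 2 was left out (adjusted p from 0.0524 to 0.0737), HIST1H1D and KLHL6 without any library but irradiated replicate 3 (0.0699 to 0.195 and 0.0525 to 0.139), C16orf74 without any but untreated replicate 3 (0.0553 to 0.139), and SCML2, COL17A1 and SOWAHC in all 6 (0.0639 to 0.2002, 0.0667 to 0.131 and 0.0580 to 0.105). Of genes without a symbol, ENSLAFG00000010198 (-2.81 ± 0.18) and ENSLAFG00000021838 (-2.40 ± 0.25) fell, both chosen after their values were seen.

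Mitotic genes were mostly lower, but few passed. Of 64 tested, 51 of them with an untreated mean below 10 CPM, 2 fell and 2 rose, 23 were lower and 4 higher with the block, and 54 had a negative log2 fold change, with a median of -0.31. CENPF, a kinetochore protein, fell from 5.04, 5.04 and 6.01 to 2.88, 2.58 and 2.60 CPM (-0.996 ± 0.13, edgeR adjusted p = 0.0114, lost when any of irradiated 1 and 2 was left out (adjusted p from 0.0507 to 0.0654)), and the kinesin KIF18B from 0.578 ± 0.0729 to 0.189 ± 0.00297 CPM (mean ± SD, n = 3, -1.598 ± 0.29, lost without any 1 of the 6 libraries, 0.105 to 0.211). The mitotic motor KIF11 gave -1.30 ± 0.28 and topoisomerase TOP2A -0.82 ± 0.25, and both passed only with the block (adjusted p = 2.03e-05 and 2.64e-06, against 0.0799 and 0.203). The 2 that rose were NCAPG of condensin (6.36, 7.31 and 7.30 to 10.8, 14.8 and 11.5 CPM, 0.82 ± 0.14) and SKA3 of the kinetochore (0.486 ± 0.207 to 1.91 ± 0.0611 CPM, 1.95 ± 0.28). NCAPG lost its call when any of untreated 1, 2 and 3 and irradiated 1 and 2 was left out (adjusted p from 0.0645 to 0.116) and SKA3 when any of untreated 2 and irradiated 1 and 2 was left out (adjusted p from 0.0740 to 0.0811). Of 58 replication genes, DNA2 alone passed, and the block gave 5 higher and 13 lower, the latter led by the helicase subunit MCM6 (-0.53 ± 0.06, adjusted p = 2.00e-05, against 0.253).

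Few genes of metabolism passed. Of 22 cholesterol synthesis genes, 1 fell, DHCR7 of the last step (14.6, 14.1 and 14.3 to 10.2, 10.4 and 10.5 CPM, -0.47 ± 0.08, edgeR adjusted p = 0.0316), and it lost the call in each fit that left out 1 library (0.0728 to 0.171). With the block 10 were lower and 1 higher, led by HMGCS1 (-0.36 ± 0.04, adjusted p = 2.17e-05, against 0.0536), and the median was -0.19. Of 23 genes of glycolysis and hypoxia none passed without the block (6 at an unadjusted p below 0.05, 2 by DESeq2). With it 4 were higher, led by the glucose transporter SLC2A1 (0.79 ± 0.05, adjusted p = 1.63e-08, against 0.130), and 8 lower, led by hexokinase HK2 (-0.44 ± 0.04, adjusted p = 1.72e-06, against 0.368). Of 52 ribosomal protein genes only RPS19 passed, from 469.8, 491 and 545 to 670.3, 743 and 753 CPM (0.52 ± 0.08, adjusted p = 0.0248, lost when any of untreated 1 and 2 and irradiated 1, 2 and 3 was left out (adjusted p from 0.0656 to 0.1199)), and copies of such genes may share reads. None of 13 heat shock genes, 18 NRF2 targets, 23 genes of ATF4 and the unfolded protein response or 16 chemokines and receptors passed without the block (1, 2, 2 and 1 at an unadjusted p below 0.05, and 0, 0, 0 and 1 by DESeq2). The block gave 2, 1, 7 and 1 higher and 2, 5, 3 and 5 lower in these 4 lists.

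Genes that passed only with the block included some of high spread within groups. Beside THBS1 and PLK2, the rises included the urokinase PLAU (20.05, 13.4 and 15.4 CPM in the untreated and 43.0, 31.4 and 24.7 CPM in the irradiated libraries, 1.01 ± 0.08) and the matricellular protein CYR61 (3.76, 2.33 and 4.72 CPM in the untreated and 7.63, 4.79 and 6.79 CPM in the irradiated libraries, 0.83 ± 0.12). Their groups did not overlap, by a narrow margin for CYR61. The metalloreductase STEAP4 gave 0.75 ± 0.11 and MGMT, which removes alkyl groups from guanine, 0.74 ± 0.11. Among the most abundant genes that passed with the block, STAT6 (0.51 ± 0.04, 737 ± 59.5 to 1052 ± 119 CPM), the lysosomal trafficking regulator LYST (0.43 ± 0.04, 634 ± 92.7 to 854 ± 119 CPM) and the autophagy receptor SQSTM1 (0.27 ± 0.04, 1214 ± 182 to 1463 ± 196 CPM) were higher (means ± SD, n = 3). The abundant genes lower with the block gave small changes: LCP1 -0.22 ± 0.03, FLNA -0.19 ± 0.04 and TLN1 -0.11 ± 0.04 of the actin cytoskeleton, ANXA1 -0.19 ± 0.03, PSAP -0.14 ± 0.03, the pan-leukocyte phosphatase PTPRC, known as CD45, -0.10 ± 0.04, the macrophage pore protein MPEG1 -0.14 ± 0.04 and the gelatinase MMP9 -0.41 ± 0.04. Without the block their adjusted p ranged from 0.304 to 0.729, and none of these 8 falls passed.

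Most of the early calls had the same direction at 24 h, in libraries that share none with the 5 h comparison. In a fit of all 12 libraries, 104 of the 145 genes that rose at 5 h were also called higher at 24 h, where 3.34% of 15200 genes tested were called higher, and 45 of the 62 that fell were called lower, where 7.64% were. Another 3 were called in opposite directions. A test of the difference between the 2 effects (interaction term) called 134 of the 15200 genes (0.882%), with 0.125% higher and 0.757% lower at 24 h, 24 of them among the 207.

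Of the p53 targets that rose at 5 h, 3 described here had a smaller effect at 24 h by a difference that passed. The effect on TP53INP1 was 2.72 at 5 h and 1.499 ± 0.12 at 24 h (difference -1.22 ± 0.17, edgeR interaction adjusted p = 0.00386). PVRL4 differed by -1.64 ± 0.28 (0.0138) and MAST4 by -1.68 ± 0.14 (9.58e-05), and the MAST4 effect at 24 h was -0.27 ± 0.10 (adjusted p = 0.113). The differences of PHLDA3 (-1.66 ± 0.44, edgeR interaction adjusted p = 0.125) and PLXNB2 (-1.33 ± 0.29, 0.0583) passed only with the replicate block (0.0366 and 0.0224). So did that of AEN, whose effect was larger at 24 h (0.85 ± 0.21, 0.0890 without the block and 0.0169 with it). The replicate numbers do not pair the libraries at 24 h, so calls of a difference gained with the block are uncertain. Outside the p53 lists, SASH1 differed by -2.61 ± 0.47 (0.0205). AMOTL1, an angiomotin of the Hippo pathway, rose at 5 h (12.3, 14.4 and 12.6 to 22.8, 26.2 and 24.9 CPM, 0.91 ± 0.10) and was lower at 24 h (-1.89 ± 0.11, difference adjusted p = 2.06e-06). For CDKN1A the effect was instead larger at 24 h, with 2.58 ± 0.18 (difference 1.24 ± 0.25, adjusted p = 0.0343). That call was lost with the replicate block (0.0566), but the replicate numbers do not pair the libraries at 24 h. The effect on BCL2L1 was also larger at 24 h (difference 1.16 ± 0.16, 0.00386). For MDM2 the 24 h effect was 2.68 ± 0.11, and the difference did not pass (0.03 ± 0.15, adjusted p = 0.991).

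Several B cell genes and PLD4, listed with the dendritic cell markers, fell at 5 h and had a more negative effect at 24 h. The 24 h effect of PLD4, given below, was close to those of the B cell markers CD79B (-3.91) and MS4A1 (-4.02). That of IRF8 was -1.13. From which cells these reads came was not tested. The other dendritic markers that fell, IRF8 and TCF4, had differences that did not pass. These were -0.16 ± 0.19 for IRF8 (edgeR interaction adjusted p = 0.909) and -0.70 ± 0.16 for TCF4 (0.0663, or 0.0314 with the replicate block, whose numbers do not pair the libraries at 24 h). FCRL1 was at -3.29 ± 0.14 at 24 h (difference -2.63 ± 0.19, edgeR interaction adjusted p = 2.94e-05), PLD4 at -3.93 ± 0.22 (-3.30 ± 0.28, 9.62e-05), FAM129C at -3.74 ± 0.18 (-2.43 ± 0.23, 2.92e-04) and MEF2C, a transcription factor of B and myeloid cells, at -1.47 ± 0.10 (-1.14 ± 0.14, 0.00248) after -0.34 ± 0.06 at 5 h. The MEF2C call at 5 h was lost without any 1 of the 6 libraries (0.0799 to 0.223). SLC16A10, which fell at 5 h, stood at -0.23 ± 0.24 at 24 h (difference 1.82 ± 0.34, adjusted p = 0.0257). LAD1, AEN and NOTCH3 were next among early calls with a higher effect at 24 h. The differences of LAD1 and NOTCH3, 0.99 ± 0.22 and 2.27 ± 0.55, did not pass (0.0610 and 0.0890). With the replicate block that of LAD1 did (0.0485), under the same limit on pairing at 24 h. Of the 24 early calls with a passing difference, 13 had risen and had a weaker or reversed effect at 24 h, and 2 had risen with a larger effect. Another 8 had fallen with a more negative effect at 24 h, and 1 had fallen with a less negative one. Each effect is set against untreated libraries of its own time, so these differences do not follow a level from 5 h to 24 h.

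**Figure D5:**
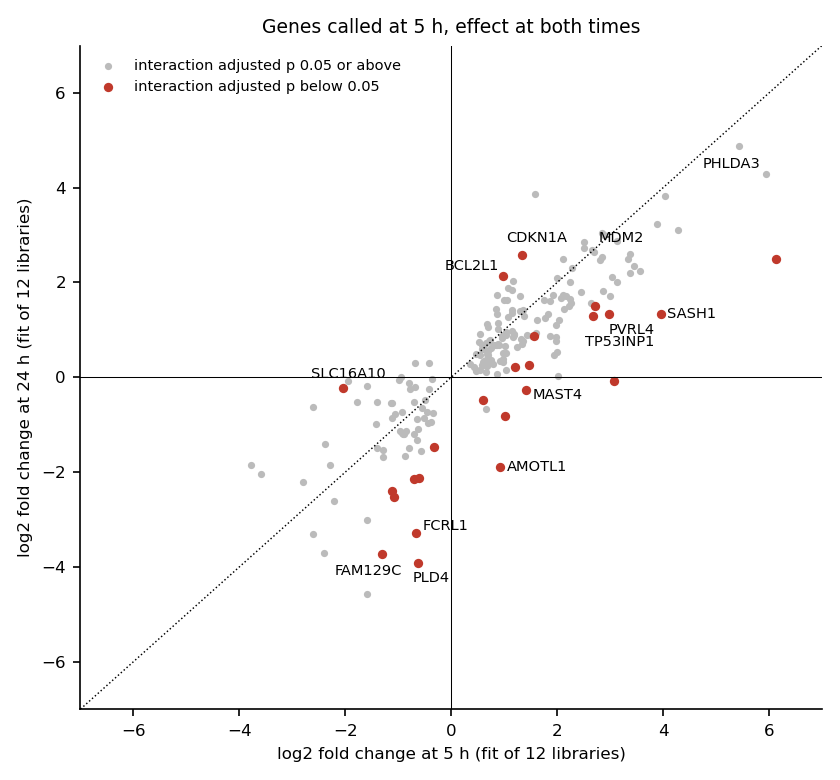
Effect of 2 Gy at 5 h (horizontal) and at 24 h (vertical), as log2 fold changes from a fit of all 12 libraries, for the 207 genes called at 5 h. Red points have a difference between the times that passed, and the dotted line marks equal effects. TP53INP1, SASH1 and AMOTL1 lie below the line, CDKN1A and BCL2L1 above it, and FCRL1, PLD4 and FAM129C far below it.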

How the data were processed

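Blood RNA of African elephants was sequenced in 6 libraries at 5 h, 3 untreated and 3 after 2 Gy, and in 6 at 24 h. Per the file headers, the authors deposited raw read counts per gene and library, with 31.1e6 to 38.1e6 counts per library at 5 h. The authors also deposited FPKM, used here to compare levels between genes, log2 ratios of the groups, coded untreated over irradiated, and scores made from adjusted p-values on a scale the headers do not state. Gene coordinates are on scaffolds of an African elephant assembly per the file headers, which do not state whether they count from 0 or 1. No source used here gives the aligner, the counting program or whether strand was used. The 12 columns of regularized log values were not used.

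Counts were tested with edgeR 4.0.16 in R 4.3.3 (TMM scaling, filterByExpr, quasi-likelihood F test, Benjamini-Hochberg at 0.05) over the 6 libraries of 5 h, without a block. Of 16406 genes, 12969 passed the filter. The same fit with the replicate number as a block is given where it changes a call. The numbers come from the labels and pair the libraries at 5 h, since the deviations of same-numbered libraries correlated above 0.1 in all 3 pairs (0.712, 0.743 and 0.863). Residual degrees of freedom are 4 without and 2 with the block. The median prior degrees of freedom, borrowed across genes, are 3.88 without and 14.14 with it. The p-values with the block therefore rest mostly on spread shared across genes. Errors beside log2 fold changes are standard errors taken from the F statistic, and CPM are TMM-scaled. The difference from 24 h was an interaction term over all 12 libraries. DESeq2 1.42.0, RLE scaling, other filters, 1 fit of 12 libraries and leaving out each library were alternatives. The steps were tested on simulated data.

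Named genes were MDM2, CDKN1A, BAX and ATM, the 15 largest rises and falls called at a mean of at least 1 CPM without overlap, the 15 largest rises and falls called only with the block at a mean of at least 5 CPM, the 8 largest gains and losses in CPM, all list members called and up to 4 per list with the smallest block p, and 6 per direction by interaction p. A part of these is described, and genes outside the rule are marked as chosen after their values were seen. The gene lists (32), the rule and the groups were chosen with earlier results of these data known. The RefSeq gene table of another assembly matched no Ensembl identifier, so names come from the deposited tables, and no sequence is printed. BBC3 and hemoglobin genes were not analysed here, and some genes that the rule names are not reported here.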

Additional observations from a re-analysis of the deposited data

Results flagged for a closer look

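The effect of irradiation differed between 5 h and 24 h, by an interaction term in an edgeR fit of all 12 libraries, in several genes described above. Values are the 24 h effect minus the 5 h effect on the log2 scale, with the adjusted p over all genes. Among genes that rose at 5 h the effect was smaller at 24 h for AMOTL1 (-2.81, 2.06e-06), SASH1 (-2.61, 0.0205), MAST4 (-1.68, 9.58e-05), PVRL4 (-1.64, 0.0138), TP53INP1 (-1.22, 0.00386) and the exosome nuclease DIS3 (-0.68 ± 0.11, 0.0124). It was larger for CDKN1A (1.24, 0.0343) and BCL2L1 (1.16, 0.00386).

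Among genes that fell at 5 h, the effect was more negative at 24 h for PLD4 (-3.30, 9.62e-05), FCRL1 (-2.63, 2.94e-05), FAM129C (-2.43, 2.92e-04), IGHM (-1.44 ± 0.22, 0.00714), C16orf74 (-1.45, 0.0376) and MEF2C (-1.14, 0.00248). It was less negative for SLC16A10 (1.82, 0.0257). Genes that passed at 5 h only with the replicate block also differed: CR2 (-3.47, 3.21e-04), CD79B (-3.31, 2.94e-05), CLEC9A (-3.26, 0.0378), MS4A1 (-3.18, 1.83e-04) and CD22 (-1.48, 0.00940).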

How the results depend on the processing

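The count of genes called at 5 h depended most on the pairing. Against 207 calls (145 higher, 62 lower), the replicate block gave 2655 (1369 and 1286), and without pair 1, pair 2 or pair 3 the block gave 2519 (1283 and 1236), 2343 (1266 and 1077) and 1747 (888 and 859). DESeq2 without the block gave 444 (240 and 204). DESeq2 with the replicate block, an alternative chosen after seeing the data, gave 1463 (820 and 643). Leaving out 1 library without the block gave 86 to 191 calls, 72 to 122 higher and 14 to 69 lower. The lowest counts of falls, 14, came without irradiated replicate 1 and without irradiated replicate 2. RLE scaling, no filter, the stricter filter of 1 CPM in 3 libraries and 1 fit of 12 libraries gave 202, 212, 179 and 167 calls, and kept 200, 201, 177 and 139 of the 207. The block kept all 207.

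The 134 genes with an interaction (19 higher and 115 lower at 24 h) became 268 with the replicate block within each time (69 and 199) and 362 with DESeq2 (80 and 282). Of the 24 genes called at 5 h that had an interaction, 22 kept it with the replicate block, CDKN1A (0.0566) and C16orf74 (0.0677) lost it, and 9 others, LAD1 (0.0485) among them, gained it. The replicate numbers do not pair the libraries at 24 h, where same-numbered libraries correlated at -0.166, -0.613 and 0.873. Leaving out 1 of the 12 libraries gave 76 to 168 genes, 4 to 51 higher and 72 to 117 lower. The total moved by over 1.5 times without untreated 5 h replicate 1 (82) or 3 (87), irradiated 5 h replicate 2 (76) or 3 (85) and untreated 24 h replicate 1 (81) or 3 (86).

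Of 88 genes named here that passed, 46 kept the call in every fit that left out 1 library, and 42 lost it in at least 1, 10 of them in all 6. With 31.1e6 or more counts per library, genes under about 1 CPM rest on few reads.

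Other settings ended calls of genes named here, each by an adjusted p that went above 0.05. RLE scaling ended GADD45A (0.0508) and IGHM (0.05003), DESeq2 and no filter ended KIF18B (0.0677 and 0.0602), and the stricter filter ended TOB1 (0.0515), GADD45A (0.0596), NOTCH3 (0.0531) and IGHM (0.0555). The fit of 12 libraries ended the calls of GDF15, TOB1, GADD45A, REV3L, C12orf5, FOSL1, GADD45G, TNFSF4, IL4R, CD70, S100A9, PLD4, SULF1, MCOLN3, COL17A1, KIF18B, DHCR7, MEF2C, LAD1, IGHM and SIGLEC1, from 0.0522 for DHCR7 to 0.661 for GADD45G. The cause was not tested.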

Other observations

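Single genes picked after their values were seen, which form no list and speak for no group, are given next. FAT1, a giant cadherin, went from 6.88, 6.74 and 6.68 to 41.5, 37.8 and 30.4 CPM in replicates 1 to 3 (log2 fold change 2.43 ± 0.13, edgeR adjusted p = 6.79e-05). The netrin receptor UNC5B rose from 1.83, 1.999 and 1.43 to 5.02, 5.62 and 5.201 CPM (1.59 ± 0.16) and the guidance ligand SLIT1 from 0.610, 0.465 and 0.562 to 2.23, 1.91 and 2.10 CPM (1.93 ± 0.20). NOTCH3, a Notch receptor, rose from 13.01, 25.9 and 14.8 to 57.7, 65.1 and 36.7 CPM (1.57 ± 0.29, adjusted p = 0.0473), with its call lost when any of untreated 1 and 3 and irradiated 1 and 2 was left out (adjusted p from 0.129 to 0.205). FAT1, UNC5B and SLIT1 kept theirs in each of the 6 fits.

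Further genes outside the lists were picked in the same way. The immunoglobulin heavy chain gene IGHM gave 171, 225 and 183 CPM in the untreated and 98.4, 129 and 125 CPM in the irradiated libraries (-0.72 ± 0.14, edgeR adjusted p = 0.0490), and immunoglobulin segments can share reads. The adaptor BLNK fell from 6.81, 7.31 and 6.99 to 3.88, 4.08 and 4.88 CPM (-0.72 ± 0.12) and STAP1 from 4.66, 4.13 and 4.55 to 2.53, 2.39 and 2.20 CPM (-0.90 ± 0.13). TIGIT, an inhibitory receptor of T and NK cells, fell from 5.53, 5.75 and 6.23 to 2.85, 2.90 and 3.85 CPM (-0.86 ± 0.15), while the macrophage receptors SIGLEC1 (248, 257 and 278 to 389, 461 and 423 CPM, 0.70 ± 0.09) and TREM2 (8.71, 10.5 and 7.78 to 18.2, 20.04 and 14.2 CPM, 0.96 ± 0.16) rose. SIGLEC1 kept its call without any 1 library. IGHM lost it in all 6 such fits (0.0702 to 0.179), BLNK and TIGIT without any library but irradiated replicate 3 (0.102 to 0.177 and 0.0986 to 0.1799), and STAP1 and TREM2 when any of untreated 1 and 3 and irradiated 1 and 2 was left out (0.0599 to 0.0794 and 0.0757 to 0.140).

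Rises were also seen in 3 other single genes. POT1, which caps telomeres, gave 0.45 ± 0.06 (edgeR adjusted p = 0.0129) and RNF169, a ubiquitin reader at breaks, 0.67 ± 0.08 (0.00615). DIS3, the RNA exosome nuclease, rose from 28.4, 29.6 and 31.0 to 90.2, 87.5 and 82.4 CPM (1.55 ± 0.07, adjusted p = 3.60e-05). POT1 lost its call when any of untreated 1 and 2 and irradiated 1 and 2 was left out (adjusted p from 0.0505 to 0.0878), and DIS3 and RNF169 kept theirs. These 3 were picked after their values were seen.

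The authors' deposited table also lists, for 71 genes at 5 h, an exon whose ratio between the groups departs from its gene, with a score on a scale the header does not state. The ratio was higher after irradiation for 42 and lower for 29, and 14 of the genes were also called here. In the authors' deposited table, the exon with the highest score lies in SP140 (scaffold 55, 8542274 to 8542319, log2 ratio 1.38). Within genes named above, the authors' deposited table lists exons of FAM129C (-1.23, scaffold 26, 24454178 to 24454294), DNA2 (1.33, scaffold 10, 50056164 to 50056360) and PVRL4 (-2.53, scaffold 33, 10615113 to 10615404), as log2 ratios of irradiated over untreated. These values carry no replicate error here.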
